A study of Homo sapiens with 3 samples.

Results

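The genes described here are the host genes of small nucleolar RNAs (snoRNAs) together with a set of abundant long non-coding RNAs, measured by RNA sequencing after knockdown of NONO. They are every gene with a symbol of SNHG followed by a number, and GAS5, ZFAS1, DANCR, EPB41L4A-AS1, TUG1, NORAD, OIP5-AS1, KCNQ1OT1, H19, UCA1, MIR22HG, MIR17HG, CYTOR, FTX and CRNDE, where listed in all 3 libraries. That gave 40 members of 21308 genes listed in all 3 libraries, made up of 30 snoRNA hosts, 2 microRNA hosts and 8 other long RNAs. SNHG25 was listed in 2 libraries and is left out, and SNHG18 and UCA1 were not analysed here. The cells were UM-UC-3, a human bladder cancer line, transfected for 48 h at 75 nM with control siRNA or with NONO siRNA 1 or 2, which target NONO, a paraspeckle protein that binds RNA and DNA. Each treatment gave 1 library, and the labels put both NONO siRNA libraries in a single group and do not say whether the libraries came from separate cultures.

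A snoRNA host gene is transcribed and spliced, and its introns, rather than its exons, carry the product that is best understood. The excised introns are trimmed to snoRNAs, which guide ribose methylation (the box C/D class) or pseudouridylation (the box H/ACA class) of ribosomal and spliceosomal RNA. The spliced exons often begin with a terminal oligopyrimidine tract, a C followed by further pyrimidines that ties translation to growth signals in ribosomal protein mRNAs, and several of these RNAs are degraded by nonsense-mediated decay once ribosomes engage them. The other long RNAs of the set act by other routes. NORAD binds PUMILIO proteins in the cytoplasm, KCNQ1OT1 silences imprinted neighbours in cis, FTX is a gene of the X-inactivation centre, and the microRNA hosts are cut by Drosha to release microRNA hairpins.

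The host genes carry this architecture in the reference. In RefSeq, 29 of the 30 snoRNA hosts had at least 1 snoRNA gene within their span, and none of the other 10 members did. SNHG14 alone spanned 84 and the other hosts together 65, with 11 in GAS5, 9 in SNHG1, 5 in SNHG17 and 4 in SNHG12. A 300-base window around the RefSeq start was at hand for 36 members. Of 27 snoRNA hosts with a window, 8 (29.6%) began with C followed by pyrimidines, for a run of 4 or more in all, against 0 of 9 other members, 5.45% of all 35116 RefSeq windows and 60.3% of 78 cytosolic ribosomal protein genes. SNHG1 began with C in a run of 3 pyrimidines, under the 4 required. The starts below are from hosts that meet this rule and from members that do not. Each is shown as 30 bases, with 10 before the annotated start and 20 from it. The pyrimidine run is in capitals where it meets the rule.
SNHG12 (chr1:28581854-28581883, minus strand): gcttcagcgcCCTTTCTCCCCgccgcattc
SNHG4 (chr5:139274091-139274120, plus strand): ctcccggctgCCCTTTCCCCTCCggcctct
SNHG5 (chr6:85678714-85678743, minus strand): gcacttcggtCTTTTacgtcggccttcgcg
SNHG32 (chr6:31834906-31834935, plus strand): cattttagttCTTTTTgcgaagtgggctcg
ZFAS1 (chr20:49278632-49278661, plus strand): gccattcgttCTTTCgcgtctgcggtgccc
SNHG1 (chr11:62855866-62855895, minus strand): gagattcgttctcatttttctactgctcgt
SNHG16 (chr17:76557754-76557783, plus strand): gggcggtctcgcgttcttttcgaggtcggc
EPB41L4A-AS1 (chr5:112160516-112160545, plus strand): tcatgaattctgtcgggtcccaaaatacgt
OIP5-AS1 (chr15:41283980-41284009, plus strand): ggcccaccgcagggttggccaccttgagaa
NORAD (chr20:36050941-36050970, minus strand): ctgccaagtcagttccggtccggcagagat
Coordinates are those of GRCh38.p14 and the sequences are RefSeq's. A gene can have several starts, the rule looks at the annotated one only, and no match says only that these letters are not at that start. GENCODE 29 coordinates given for genes are also on GRCh38, which is not the build named in the submitters' processing notes (hg19 or GRCh37).

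The siRNAs are shown because a short match to an siRNA can lower an RNA that was not its target. They are printed as labelled, with capitals on the 7 bases that a transcript must hold, with T for U, to pair with bases 2 to 8 of the guide strand.
Control siRNA: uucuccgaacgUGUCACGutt
NONO siRNA 1: ggcgaagucuuCAUUCAUatt
NONO siRNA 2: gcaucccuuacAGUUCGAatt
The label of the control siRNA does not say which strand is given, and it was taken as the sense strand, like those of both NONO siRNAs. No member's annotated transcript held a full match. In the longest transcript, 8 of 33 tested members (24.2%) held the NONO siRNA 1 guide site, against 24.3% of 13886 tested genes. The site of the NONO siRNA 1 sense strand was in 3 members (9.09%), against 5.81% of tested genes. The NONO siRNA 2 guide site was in 3 members (9.09%), against 11.3% of tested genes, and the site of that siRNA's other strand was in 9 members (27.3%), against 25.7%. TUG1 was the only tested member with the control guide site, and none held the site of the control's other strand.

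NONO itself was listed at 823 CPM (a read count scaled to a common library size) under control siRNA, and at 79.5 and 104 CPM under NONO siRNA 1 and siRNA 2. It passed limma's test (mean log2 fold -3.17, SE 0.24, adjusted p = 0.00698). In what follows, 3 values in a row are in that order. The values implied between 27681990 and 29408573 reads a library. KRT8 and KRT18, keratins of simple epithelia, stood between 43.0 and 111 CPM in every library. Of the 11 epithelial and urothelial markers, 7 were not tested, among them EPCAM, CDH1 and the uroplakins searched. Each of these was either not listed in all 3 libraries or did not reach 1 CPM in any. The 7 epithelial markers listed in all 3 libraries, 4 of them tested, summed to 191, 94.9 and 181 CPM. The mesenchymal markers VIM, CDH2 and FN1 summed to 1473, 1045 and 1079 CPM. In the leukocyte, endothelial and fibroblast lists, 2 of 6, 2 of 4 and 2 of 5 genes were listed in all 3 libraries. These summed to at most 1.66, 1.88 and 5.02 CPM. In bulk RNA, fewer cells of a type and less RNA per cell cannot be told apart.

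Of the 40 members, 33 reached 1 CPM in at least 1 library and were tested, and each of these 33 reached it in all 3. They were 24 snoRNA hosts, both microRNA hosts and 7 other long RNAs. The remaining 7 members, SNHG9, SNHG21, SNHG22, SNHG27, SNHG28, SNHG31 and H19, had 1 to 20 reads in a library and at most 0.680 CPM. H19, an imprinted RNA that is abundant in many embryonic tissues, had 3 reads in each library. Among tested hosts, levels in the control library ran from 2.67 CPM for SNHG19 to 204 CPM for SNHG29. Per kilobase of merged exons in GENCODE 29, SNHG6 was highest in that library at 66.0 CPM per kb, ahead of SNHG29 at 54.2, NORAD at 53.0 and SNHG32 at 42.9 CPM per kb. Long genes came out far lower on that scale, with KCNQ1OT1 at 0.101 and FTX at 0.0558 CPM per kb.

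**Figure D1:**
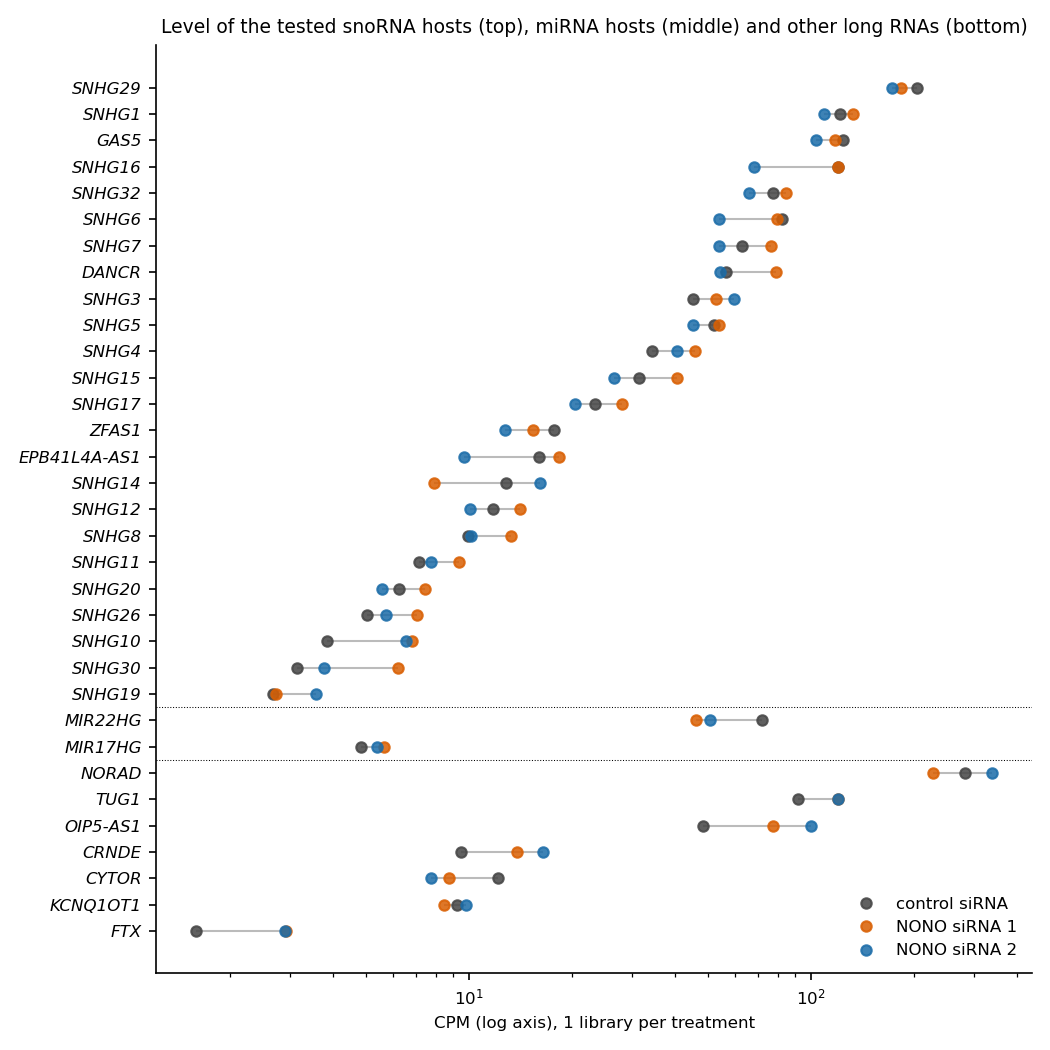
CPM of each of the 33 tested members on a log axis, with 1 point per library (grey, control siRNA; orange, NONO siRNA 1; blue, NONO siRNA 2) and a line over the range of the 3. In most snoRNA hosts the siRNA 2 point is left of the siRNA 1 point, and OIP5-AS1 goes from 48.4 to 77.4 and 100.2 CPM.

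No member passed the test of NONO siRNA against control in either direction. The test was limma with a trend on log2(CPM + 1), adjusted over all 13922 genes, of which 0.215% were called (0.136% higher and 0.079% lower). The lowest limma adjusted p among members was 0.244, for OIP5-AS1. No alternative called a member either, although the share of all genes called ran from 0 to 1.73% with upper-quartile scaling. It was 1.49% with DESeq2, 0.92% with edgeR under its own filter, 0.187% with a pseudocount of 0.1 CPM, 0.0287% with TMM scaling (1 higher and 3 lower, against 19 and 11), 0.0215% without a trend and 0.00718% with edgeR under the 1 CPM filter. Where that share was 0, NONO itself was not called, so the lack of calls there says nothing about the members. At an unadjusted p under 0.05, there were 3 of 33 members (OIP5-AS1, SNHG10 and MIR22HG) and 11.4% of all tested genes. Members with a log2 fold past 0.5 in the same direction with both siRNAs were OIP5-AS1, SNHG10 and FTX, 3 of 33 (9.09%), and 12% of all tested genes did the same. The control's 95% Poisson interval lay outside those of both siRNAs on the same side in 10 of 33 members, and in 33.3% of all tested genes. With a lone control library, a p rests on the spread between 2 different siRNAs and on the assumption that the control varies alike. A p that misses the threshold does not show that a gene stayed at its level.

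In each of the 4 snoRNA hosts with the highest CPM, siRNA 2 gave the lowest of the 3 values. SNHG29, which hosts 3 box C/D snoRNAs, stood at 204, 183 and 172 CPM (log2 folds -0.15 and -0.24, SE of the mean 0.22, limma adjusted p = 0.791). GAS5, a growth-arrest RNA whose level depends on nonsense-mediated decay, stood at 124, 118 and 103 CPM (-0.079 and -0.26, SE 0.23, limma adjusted p = 0.839). For both, the control was the highest of the 3 libraries and siRNA 2 the lowest. SNHG1 stood at 122, 132 and 109 CPM (0.12 and -0.15, SE 0.24, limma adjusted p = 0.987), so the control lay between the siRNAs.

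SNHG16, which also hosts 3 box C/D snoRNAs, stood apart under siRNA 2 alone. The gene (ENSG00000163597, GENCODE 29 on GRCh38, chromosome 17, 76557766 to 76565348, plus strand) stood at 120.2 CPM under control siRNA (95% Poisson limits 116 to 124) and at 119.8 CPM under siRNA 1 (116 to 124). With siRNA 2 it stood at 68.3 CPM (65.3 to 71.4), or 57.0% of its siRNA 1 level. The log2 folds were -0.0047 and -0.81 (SE of the mean 0.33, limma adjusted p = 0.713). Its longest transcript held 1 site of the siRNA 2 sense strand and none of the guide, and the part of that site in the difference was not tested. Poisson intervals cover counting error only.

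**Figure D2:**
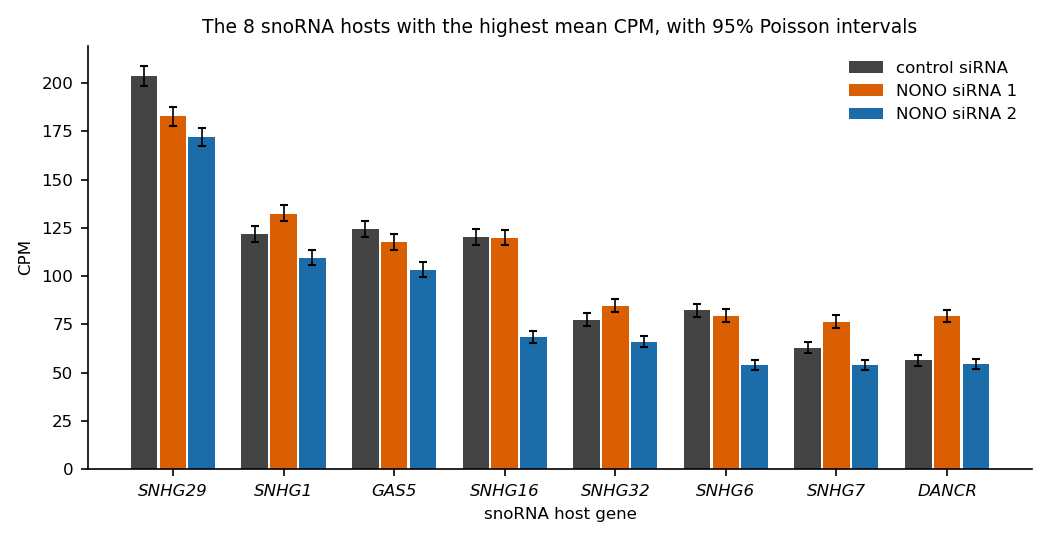
CPM in each library of the 8 snoRNA hosts with the highest mean level, with bars from 0 and 95% Poisson intervals that cover counting error only. The siRNA 2 bar is the lowest of the 3 in each of these hosts, and in SNHG16 it stands at 68.3 CPM against 119.8 and 120.2 CPM.

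The snoRNA hosts differed between the 2 NONO siRNAs more often in one direction than tested genes at large. Of the 24 tested hosts, 21 (87.5%) were lower with siRNA 2 than with siRNA 1, and 52.7% of all tested genes were. The 95% Poisson intervals of the siRNAs did not overlap, with siRNA 2 lower, in 16 of the 24 hosts, where 25.8% of all tested genes showed that. They did not overlap with siRNA 2 higher in 2 hosts, against 23.7% of all tested genes. The median log2 difference, siRNA 2 minus siRNA 1, was -0.31 over the hosts and -0.021 over all tested genes. On the log2(CPM + 1) scale no host reached a 2-fold difference between the siRNAs, and 2.05% of all tested genes did. On CPM itself SNHG14 passed it, with siRNA 2 at 204% of siRNA 1. With 1 library a side there is no replicate check and no test. The siRNA sequence, the NONO level reached (79.5 against 104 CPM) and the library cannot be told apart. The epithelial markers KRT8 and KRT18 also differed between these libraries, at 43.0 against 85.4 CPM and 49.0 against 93.3 CPM. Among the other tested epithelial markers, GATA3 went the other way, at 2.04 against 1.12 CPM, and KRT7 stood at 0.31 against 0.45 CPM. The part of such differences in the result was not tested.

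Set against the control, 18 hosts were higher and 6 lower with siRNA 1, with a median log2 fold of 0.22. With siRNA 2, 9 were higher and 15 lower, with a median of -0.17. Over all tested genes the medians were 0.025 and 0.0073, and over the 1292 tested long non-coding genes they were 0.19 and 0.17. The hosts' median with siRNA 1 was thus near that of long non-coding genes at large, and their median with siRNA 2 was of the other sign. The signs were opposite in 11 of the 24 hosts (45.8%), and in 27.7% of all tested genes. The summed level of the hosts was 1132, 1202 and 965 CPM.

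Other hosts with a wide gap between the siRNAs are named here after their values were seen. EPB41L4A-AS1, which hosts SNORA13, stood at 16.0, 18.4 and 9.69 CPM, so its siRNA 2 level was 52.8% of that under siRNA 1. SNHG6 stood at 82.3, 79.5 and 53.9 CPM, and SNHG15 at 31.4, 40.7 and 26.6 CPM. DANCR, which is known for keeping progenitor cells undifferentiated, stood at 56.4, 79.2 and 54.3 CPM. In DANCR the control and siRNA 2 levels overlapped within counting error and siRNA 1 stood apart above both, whereas in EPB41L4A-AS1, SNHG6 and SNHG16 it was siRNA 2 that stood apart below both. SNHG7 (62.9, 76.4 and 53.9 CPM), SNHG32 (77.3, 84.8 and 66.1 CPM), SNHG17 (23.3, 28.1 and 20.5 CPM) and SNHG12 (11.7, 14.1 and 10.0 CPM) had the control between both siRNAs. SNHG20 did so too at 6.25, 7.41 and 5.56 CPM.

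Some hosts were above the control with both siRNAs. SNHG10, which hosts the scaRNA SCARNA13, stood at 3.83, 6.80 and 6.54 CPM (log2 folds 0.69 and 0.64, SE 0.29, limma adjusted p = 0.426). SNHG4 stood at 34.4, 45.7 and 40.6 CPM, SNHG3 at 45.2, 52.7 and 59.5 CPM, and SNHG30 at 3.14, 6.19 and 3.78 CPM. For SNHG10, SNHG4 and SNHG3 the control interval lay below those of both siRNAs, while in SNHG30 it overlapped that of siRNA 2. SNHG8 (9.93, 13.2 and 10.1 CPM), SNHG11 (7.12, 9.32 and 7.76 CPM) and SNHG26 (5.02, 7.04 and 5.74 CPM) were highest with siRNA 1 and close to the control with siRNA 2. ZFAS1 was below the control with both siRNAs, at 17.8, 15.4 and 12.8 CPM, and SNHG5, at 52.2, 53.9 and 45.1 CPM, differed little between control and siRNA 1.

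SNHG14, SNHG3 and SNHG19 were the 3 hosts that were higher with siRNA 2 than with siRNA 1. SNHG14 is the long imprinted transcript that carries the SNORD116 and SNORD115 clusters. It stood at 12.8 CPM under control siRNA (95% Poisson limits 11.5 to 14.2), 7.92 CPM under siRNA 1 (6.94 to 9.01) and 16.2 CPM under siRNA 2 (14.7 to 17.7), so no pair of libraries overlapped. Its log2 folds were -0.63 and 0.31, and the gap of 0.94 between the siRNAs was the widest of any tested member. SNHG14 also held 1 guide site of siRNA 1 and 6 sites of the siRNA 2 sense strand in a longest transcript of 13074 bases. SNHG19, the host with the lowest level tested, stood at 2.67, 2.72 and 3.57 CPM, with overlapping intervals.

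**Figure D3:**
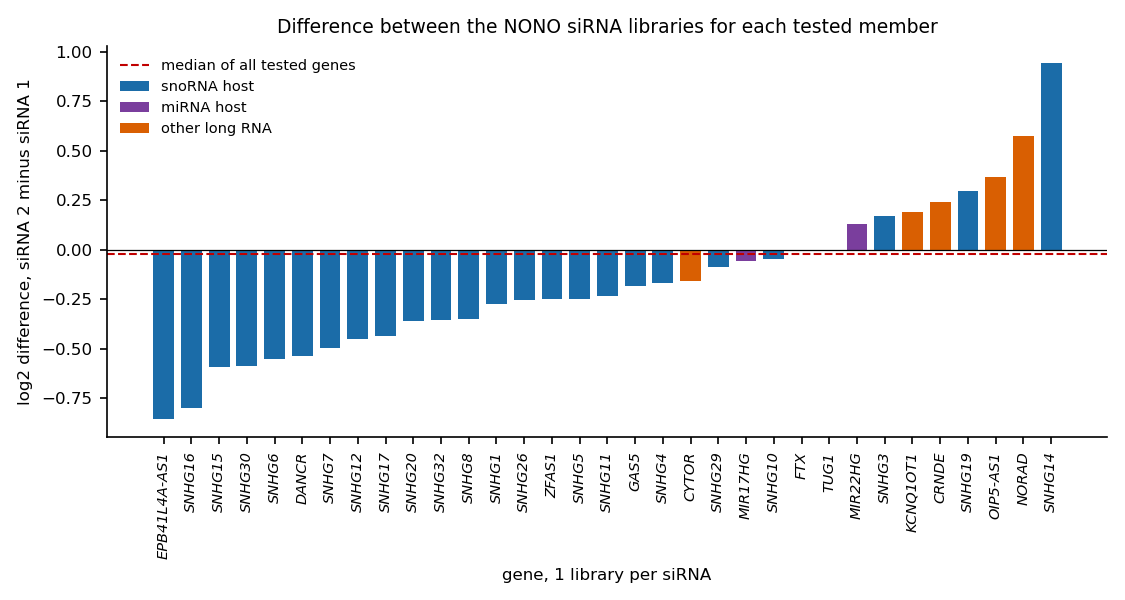
Log2(CPM + 1) with NONO siRNA 2 minus that with NONO siRNA 1 for each tested member, sorted, with bars coloured by group and the median of all tested genes as a dashed line. All but 3 of the snoRNA hosts (blue) are below 0, from -0.86 for EPB41L4A-AS1, and SNHG14 is the highest bar at 0.94.

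The split between siRNAs was also counted in several subsets of the hosts. Of the 12 hosts that overlap no other tested gene, 11 were lower with siRNA 2, with a median difference of -0.35. In 15 hosts the longest transcript, the only one searched, held no seed site of either strand of either NONO siRNA. Of these 15, 14 were lower with siRNA 2, with a median of -0.35. Of the 9 with a site, 7 were, with a median of -0.27. Hosts with a pyrimidine tract at the annotated start were lower with siRNA 2 in 7 of 8 cases (median -0.25), and hosts without it in 12 of 14 (median -0.31). SNHG6 and SNHG15, both lower with siRNA 2, had no RefSeq window and are in neither count. No test was run on these subsets, and the part of overlap, seed sites or starts in the split was not tested.

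Protein-coding snoRNA hosts and ribosomal protein genes were also mostly lower under siRNA 2 than under siRNA 1. Among 38 protein-coding snoRNA hosts, 34 (89.5%) were lower with siRNA 2 than with siRNA 1, with a median difference of -0.17. Of the 19 that are not ribosomal protein genes 15 were lower, with a median of -0.13. All 78 cytosolic ribosomal protein genes together had 73 lower with siRNA 2, with a median of -0.16, a list added after values were seen. None of these genes passed limma's test, and the difference between these medians and that of the long RNA hosts was not tested. Set against the control, 22 of the 38 were lower with both siRNAs (medians -0.049 and -0.20), as were 59 of the 78 (-0.096 and -0.25). Of the 19 that are not ribosomal protein genes, 7 were lower with both (0.13 and -0.079). Among the 24 long RNA hosts 5 were lower with both (0.22 and -0.17). Of all 13922 tested genes, 4800 were lower and 5264 higher with both. Over 1292 tested long non-coding genes of all kinds, 51.2% were lower with siRNA 2, and the median difference was -0.0090.

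The proteins that pack and process snoRNAs were mixed. None of 16 snoRNP proteins and assembly factors passed limma's test, both siRNAs were above the control in 4 and below it in 4, and 13 were lower with siRNA 2 than with siRNA 1. DKC1, the pseudouridine synthase of box H/ACA particles and itself a snoRNA host, stood at 239, 394 and 318 CPM (limma adjusted p = 0.388). SNU13, the core box C/D protein that binds the kink-turn, stood at 109, 68.2 and 85.5 CPM, and PIH1D1, a subunit of the assembly chaperone R2TP, at 65.0, 41.3 and 39.2 CPM (limma adjusted p = 0.503 and 0.330). In DKC1 both siRNA levels were above the control, and in SNU13 and PIH1D1 both were below it.

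Factors that degrade these RNAs did not pass the test either. Of 10 factors of nonsense-mediated decay, 5 were higher and 3 lower with both siRNAs, with medians of 0.13 and -0.017. Between the siRNAs, 8 of the 10 were lower with siRNA 2 than with siRNA 1, with a median difference of -0.083. UPF2, the bridge between UPF1 and the exon junction complex, stood at 69.4, 103 and 97.4 CPM (limma adjusted p = 0.446). SMG9, a regulator of the SMG1 kinase, stood at 101, 138 and 131 CPM. Of 17 exosome and nuclear turnover genes, 2 were higher and 7 lower with both. Between the siRNAs, 11 of the 17 were lower with siRNA 2 than with siRNA 1, with a median difference of -0.070. The exosome core subunits EXOSC5 and EXOSC8 lay on opposite sides of their control levels, at 31.9, 24.4 and 21.4 CPM and at 65.7, 81.9 and 81.1 CPM. RBM7, the RNA-binding subunit of the nuclear exosome targeting complex, stood at 21.2, 25.3 and 32.7 CPM, above the control with both siRNAs. The nuclear exonuclease XRN2 stood at 525, 444 and 437 CPM, below it with both.

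The snoRNAs themselves were barely sampled. Of the snoRNA genes within members, 15 were listed in all 3 libraries, and the highest level of any was 1.23 CPM. Of these 15, 6 had more than 15 reads in some library, a choice made after their values were seen. SNORD12B, in ZFAS1, had 34, 36 and 14 reads, SNORD99, in SNHG12, had 20, 20 and 4, and SNORA73B, in SNHG3, had 18, 24 and 27. The SNHG17 snoRNAs differed among themselves, with 32, 33 and 22 reads for SNORA71B, 17, 22 and 18 for SNORA71A and 30, 26 and 33 for SNORA71C. From siRNA 1 to siRNA 2, SNORA71C thus went the opposite way to its host and the other 5 the same way. Steps such as 22 to 18 or 24 to 27 reads are small beside the counting error of such counts. Of those with fewer reads, SNORA13 (3 to 5) and SNORA60 (10 to 12) went the opposite way to their hosts. SNORA26 (4 to 2), SNORA74D (9 to 8) and SCARNA13 (7 to 5) went the same way, and the rest did not change. Reads of a precursor's intron and of the mature snoRNA cannot be told apart in these totals.

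The microRNA hosts are shown with the microRNAs they release, since the host level says nothing of how much is processed. The mature sequences are RefSeq's (GRCh38.p14), with the seed, bases 2 to 8, in capitals.
miR-17-5p: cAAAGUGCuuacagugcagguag
miR-20a-5p: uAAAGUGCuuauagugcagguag
miR-18a-5p: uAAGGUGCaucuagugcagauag
miR-19a-3p: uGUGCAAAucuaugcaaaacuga
miR-19b-3p: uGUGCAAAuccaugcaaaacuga
miR-92a-3p: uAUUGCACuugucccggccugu
miR-22-3p: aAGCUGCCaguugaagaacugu
The miR-17 and miR-20a seeds are identical, as are those of miR-19a and miR-19b. All but miR-22 come from MIR17HG, the host of an oncogenic cluster that MYC induces, at 4.84, 5.64 and 5.39 CPM (log2 folds 0.19 and 0.13, SE 0.29, limma adjusted p = 0.888). The 3 intervals overlapped.

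MIR22HG, the host of miR-22, stood lower with both siRNAs without passing the test. The gene (ENSG00000186594, GENCODE 29 on GRCh38, chromosome 17, 1711493 to 1717174, minus strand) stood at 72.0 CPM under control siRNA (95% Poisson limits 68.8 to 75.2), 46.2 CPM under siRNA 1 (43.8 to 48.8) and 50.6 CPM under siRNA 2 (48.1 to 53.3). The siRNA libraries overlapped each other and not the control. Its log2 folds were -0.63 and -0.50 (SE of the mean 0.25, limma adjusted p = 0.433). No seed site of any of the siRNA strands was found in its longest transcript. WDR81, which starts 651 bases from MIR22HG on the other strand, stood at 47.7, 39.3 and 35.2 CPM.

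**Figure D4:**
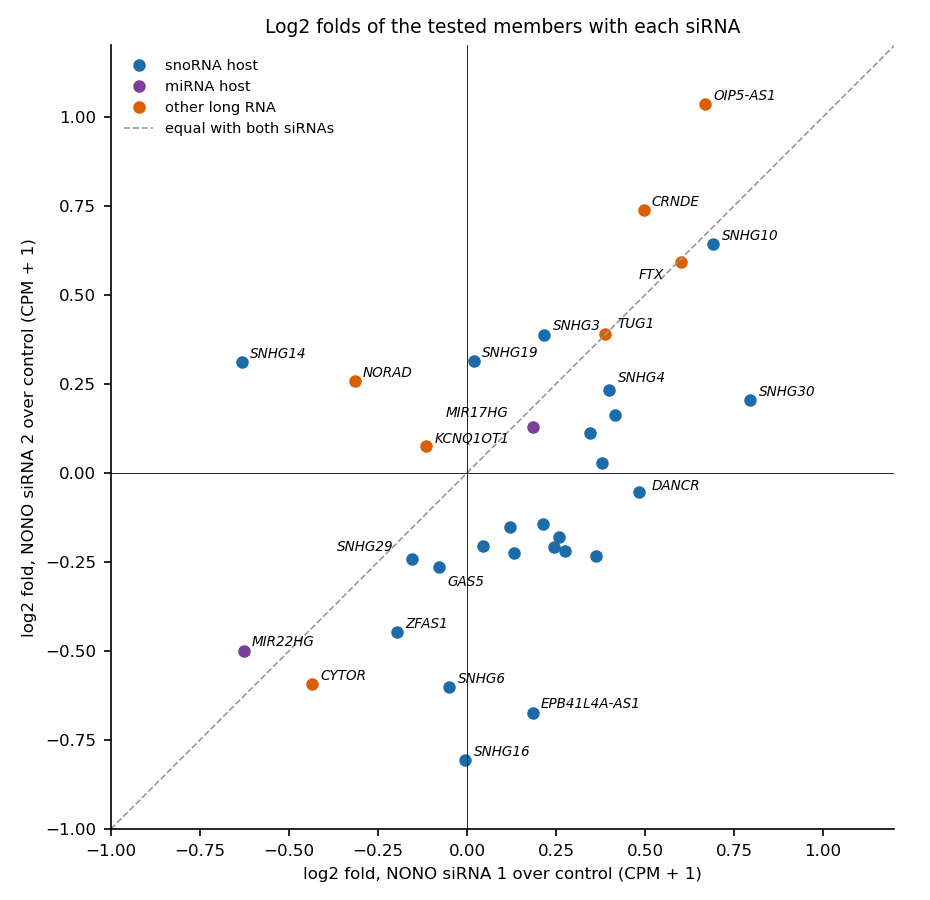
Log2 fold of each tested member with NONO siRNA 2 (vertical) against that with NONO siRNA 1 (horizontal), on the log2(CPM + 1) scale with 1 library each and a shared control library. Most snoRNA hosts (blue, some unlabelled) lie below the dashed line of equal folds, OIP5-AS1 lies highest at 0.67 and 1.04, and MIR22HG and CYTOR lie at lower left.

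Among the other long RNAs, OIP5-AS1 had the highest folds on the log2(CPM + 1) scale, which shrinks those of genes near 1 CPM. On CPM itself, FTX was higher relative to control under siRNA 1 (184% against 160% for OIP5-AS1) and OIP5-AS1 under siRNA 2 (207% against 183%). OIP5-AS1 (ENSG00000247556, GENCODE 29 on GRCh38, chromosome 15, 41283990 to 41309737, plus strand), a cytoplasmic RNA known as cyrano that is needed in zebrafish development, stood at 48.4 CPM under control siRNA (95% Poisson limits 45.8 to 51.0). Under siRNA 1 it reached 77.4 CPM (74.3 to 80.7), and under siRNA 2 100.2 CPM (96.6 to 104). No intervals overlapped, and both siRNAs were above the control. The log2 folds were 0.67 and 1.04 (SE of the mean 0.26, limma adjusted p = 0.244). OIP5, a centromere gene that overlaps it on the other strand, stood at 10.6, 8.13 and 12.5 CPM, on either side of its control level. The longest OIP5-AS1 transcript held 1 guide site of siRNA 1, and the CRNDE transcript 2 sites of the siRNA 2 sense strand.

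NORAD, the RNA with the most reads of all members, lay on either side of the control. It stood at 283 CPM under control siRNA (95% Poisson limits 277 to 290), 227 CPM under siRNA 1 (222 to 233) and 339 CPM under siRNA 2 (332 to 346). The log2 folds were -0.32 and 0.26 (SE of the mean 0.27, limma adjusted p = 0.980). NORAD was thus 149% of its siRNA 1 level with siRNA 2, opposite to most snoRNA hosts, and it held no seed site of any siRNA strand.

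TUG1 and CRNDE were above the control with both siRNAs. TUG1, an RNA linked to chromatin regulation, stood at 91.7, 120.3 and 120.4 CPM (log2 folds 0.39 and 0.39, SE 0.23, limma adjusted p = 0.580). Its longest transcript held 1 guide site of each of the 3 siRNAs, and the part of these sites in its levels was not tested. CRNDE, an RNA raised in colorectal tumours, stood at 9.50, 13.8 and 16.5 CPM (0.50 and 0.74, SE 0.28, limma adjusted p = 0.461). The siRNA levels overlapped within counting error in both genes, and the control lay below.

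FTX, CYTOR and KCNQ1OT1 had the lowest mean CPM among the tested other long RNAs. FTX, with 44, 86 and 83 reads, stood at 1.59, 2.92 and 2.90 CPM (log2 folds 0.60 and 0.59, SE 0.29, limma adjusted p = 0.495). CYTOR, a cytoplasmic RNA linked to the actin cytoskeleton, stood at 12.2, 8.74 and 7.73 CPM (-0.44 and -0.59), below the control with both siRNAs. The longest CYTOR transcript held 2 guide sites of siRNA 1 and 1 site of the siRNA 2 sense strand, and their part in these levels was not tested. The longest FTX transcript held 4 and 1 of the same sites, and their part in its levels was not tested either. CYTOR has a near-identical copy, MIR4435-2HG, so its value is uncertain, and the copy stood at 44.6, 50.0 and 41.6 CPM. KCNQ1OT1, at 9.25, 8.47 and 9.79 CPM, had overlapping intervals in all 3 libraries.

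The genes next to the members were also read from the same fit. In GENCODE 29, 18 tested members had a tested gene that overlaps them or starts within 1 kb, in 26 pairs, and none of these neighbours passed limma's test. SLC3A2, an amino acid transporter chain that starts 188 bases from SNHG1 on the other strand, stood at 160.4, 184 and 251 CPM, where SNHG1 was lowest with siRNA 2. ZNFX1, which starts 248 bases from ZFAS1, stood at 151, 137 and 154.5 CPM. MORC2, opposite TUG1, stood at 52.1, 57.5 and 46.4 CPM, and RCC1, which shares its strand and span with SNHG3, stood at 131, 144.5 and 131 CPM. Reads of the 15 members with an overlapping tested gene are uncertain, since the strand setting is not given in the sources used here. For the 7 of them that overlap a gene on the same strand, a strand setting could not separate reads where exons overlap. Overlap was taken over whole gene spans, introns included, and overlap of exons was not checked.

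UBE3A, the ubiquitin ligase gene antisense to the far end of SNHG14, had the highest folds of these 26 pairs. It stood at 37.8, 84.9 and 75.2 CPM (log2 folds 1.15 and 0.97, SE 0.25, limma adjusted p = 0.130). Both siRNA libraries were above the control, while SNHG14 was below it with siRNA 1 and above it with siRNA 2.

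Both motifs searched were looked for in the 300-base windows. CACGTG, the E-box that MYC binds and which reads the same on both strands, was in 5 of 36 member windows (13.9%) and in 7.26% of all RefSeq windows of 300 bases. The 5 were SNHG7, SNHG30, OIP5-AS1, NORAD and TUG1. TGACGTCA, the cyclic AMP response element, also the same on both strands, was in none of the 36 and in 1.85% of all windows. These matches are descriptions and not sites of binding.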

How the data were processed

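RNA of UM-UC-3 cells was sequenced as 100 bp read pairs. The submitters' processing notes name HTSeq 0.6.1, HISAT2 2.1.0, bcl2fastq 2.19.1, GRCh37 and hg19. How strand was set, and which annotation was used, is not given in the sources used here. For each library the authors deposited 1 table of CPM values, normalized by them to library size and not to length, as shown by the values as deposited: 99.3% to 99.5% of a library's values equal a whole number of reads (tolerance 0.01 reads). Values at exactly 0.5 of a read were taken as 0 reads.

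Of 21308 genes in all 3 tables, 13922 reached 1 CPM somewhere and were tested, as 2 NONO siRNA libraries against 1 control, on log2(CPM + 1) in limma (3.58.1, R 4.3.3, trended variance), with 1 residual and 7.68 prior degrees of freedom. Tests were two-sided with Benjamini-Hochberg adjustment and a threshold of 0.05. The lone control is assumed to vary like the siRNA libraries, and folds understate changes near 1 CPM. edgeR 4.0.16 (quasi-likelihood) and DESeq2 1.42.0 on the recovered reads were alternatives. edgeR called 1 gene under the 1 CPM filter and 156 of 16963 under its own. The tests were tried on simulated counts in which both siRNAs had the same fold and every gene the same scatter. In these data 27.7% of tested genes had opposite signs with the 2 siRNAs. The trial therefore does not show how well the tests work here. Intervals are exact Poisson at 95% and cover counting error only.

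Members and lists were chosen with earlier results of these data known. Full statistics are given for called members, for the 4 of each group with the highest mean CPM and for those with log2 folds past 0.5 the same way with both siRNAs or differing by 1 between them. Genes of other lists were named by the smaller of their folds where both agreed in sign, up to 4 a list. Of the identifiers, 21049 had a symbol and 21182 were in GENCODE 29.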

Additional observations from a re-analysis of the deposited data

How the results depend on the processing

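No member was called under any of the 9 alternatives that give a test, and the lowest adjusted p was 0.139, for OIP5-AS1 with upper-quartile scaling in limma. The counts over all genes moved far. From 19 higher and 11 lower, limma gave 161 and 80 with upper-quartile scaling, 1 and 3 with TMM scaling, 0 and 3 without a trend, and 0 and 0 both with no filter and with at least 1 CPM in all 3 libraries. edgeR gave 0 and 1, or 86 and 70 with its own filter on low counts, which was chosen after seeing the data, and DESeq2 gave 146 and 61. The cause was not tested. The alternatives that called no gene at all missed NONO too, so their lack of calls says nothing about the members. With a pseudocount of 0.1 CPM, 1 member, SNHG14, differed at least 2-fold between the siRNAs, as on CPM itself (204%), and the pseudocount of 1 CPM takes it to none. The median log2 fold of members with siRNA 2, -0.053, was 0.035 with no filter. The split of snoRNA hosts, also chosen after seeing the data, was 21 of 24 under each scaling and 23 of 30 with no filter, and its median stayed between -0.33 and -0.25. Leaving out 1 NONO siRNA gives values with no test, and the mean fold of NORAD (-0.028) then read 0.26 with siRNA 2 alone and that of SNHG1 (-0.017) read 0.12 with siRNA 1 alone. No paired analysis was possible because the groups share fewer than 2 replicate numbers. The 7 untested members had at most 20 reads a library.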
